A study of Mus musculus with 6 samples.

Results

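The miRNAs described here are the sequences named miR-199a, miR-199b and miR-214 in mouse liver, both arms of each hairpin. All entries whose mouse name begins with miR-199a-, miR-199b- or miR-214- were taken, which gave 6 of the 1978 mouse names. The names miR-199a-3p and miR-199b-3p stand for 1 identical sequence, written miR-199a/b-3p below, so the 6 names hold 5 distinct sequences of 1963 in mouse.

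Mice of the Cre-miR122 group (replicates 1, 2 and 4) received AAV-Tnnt2-Cre-miR122, and mice of the Cre group (replicates 10, 11 and 12) received AAV-Tnnt2-Cre. Both vectors are adeno-associated viruses of serotype AAV9 that carry Cre recombinase behind Tnnt2, the cardiac troponin T gene whose promoter is used for expression in heart muscle cells. The labels do not say what the miR122 element contains, and they give no strain, age or time after injection. The study asked how this element affects liver miRNAs. Counts of 1 library, the liver of Cre-miR122 replicate 2, were analysed. The remaining 5 were not analysed here, so no comparison with Cre liver and no spread between animals can be given.

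A miRNA hairpin is cut into a duplex of a 5p and a 3p strand, and one strand is loaded into an Argonaute protein, where bases 2 to 8, the seed, pair with target mRNAs. A strand that begins 1 base earlier or later therefore has another seed. miR-214 and the miR-199a of 1 hairpin, Mir199a-2, are made from Dnm3os, a long noncoding RNA transcribed on the strand opposite the dynamin gene Dnm3. The other miR-199a hairpin, Mir199a-1, lies on chromosome 9. In mice the transcription factor Twist1 activates the Dnm3os transcript. miR-199a and miR-214 are known from mesenchymal cells. In liver they are known from hepatic stellate cells, the pericytes that become collagen-producing myofibroblasts in fibrosis. Both families are also known in heart and skeletal muscle.

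The members come from 4 hairpins, shown here to place both arms and the base in front of each. All sequences lie on the GRCm38 (mm10) build and are RefSeq hairpins, 5′ to 3′, with the arms of the mouse entries in capitals.
Mir199a-2 (chr1:162217814-162217923, plus strand): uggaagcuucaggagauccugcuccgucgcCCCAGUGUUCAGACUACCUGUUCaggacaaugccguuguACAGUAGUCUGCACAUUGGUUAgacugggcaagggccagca
Mir214 (chr1:162223368-162223477, plus strand): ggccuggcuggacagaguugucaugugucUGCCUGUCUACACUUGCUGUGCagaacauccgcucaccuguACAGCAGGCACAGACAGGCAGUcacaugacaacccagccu
Mir199a-1 (chr9:21496495-21496564, minus strand): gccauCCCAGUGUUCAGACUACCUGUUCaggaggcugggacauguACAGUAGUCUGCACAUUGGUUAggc
Mir199b (chr2:32318460-32318569, plus strand): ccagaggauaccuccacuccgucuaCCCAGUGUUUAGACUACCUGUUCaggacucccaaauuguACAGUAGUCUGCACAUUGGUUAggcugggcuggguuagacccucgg

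Mir199a-2 and Mir214 lie in exons of Dnm3os (chromosome 1, plus strand, 162217623 to 162225550), 5444 bases apart, and on the opposite strand within an intron of Dnm3. Mir199a-1 lies in an intron of Dnm2 and Mir199b in an intron of Dnm1, each on the strand opposite its dynamin gene. Mir199a-1 and Mir199a-2 give the same mature strands, so their reads cannot be separated. Only miR-199b-5p separates a miR-199 locus from the others, by C10T relative to miR-199a-5p (miR-199a-5p base first, positions from 1 at the 5′ end). In all 4 hairpins the base before the 3p arm is U.

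The 5 mouse sequences are given next, as DNA letters of the deposited list with the seed in capitals, because the seeds define which sequences form a family.
mmu-miR-199a-5p: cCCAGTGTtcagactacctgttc
mmu-miR-199b-5p: cCCAGTGTttagactacctgttc
mmu-miR-199a-3p and mmu-miR-199b-3p: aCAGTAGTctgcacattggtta
mmu-miR-214-5p: tGCCTGTCtacacttgctgtgc
mmu-miR-214-3p: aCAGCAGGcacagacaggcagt

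miR-199a-5p and miR-199b-5p shared the seed CCAGTGT, which no other of the 1963 mouse sequences carries. The seeds of miR-199a/b-3p and of miR-214-5p were likewise found in no other mouse sequence. The seed of miR-214-3p, CAGCAGG, occurs also in miR-761, which had 0 reads. At this depth 0 reads allows a share of up to 4.5e-05% of mouse reads, taking 3 reads as the floor. miR-199a/b-3p and miR-214-3p begin with the same 4 bases but have different seeds.

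The library held 8163802 reads over all distinct sequences, of which 6661069 (81.6%) were counted for mouse sequences. The 5 members together had 6237 reads, 0.0936% of mouse reads (exact Clopper-Pearson 95% interval 0.0913 to 0.0960). All 5 had reads, as did 546 of the 1963 mouse sequences. Intervals in the text are exact 95% values, floors are 3 reads, and both cover the counting error of reads in 1 library only. PCR copies count as separate reads and ligation favours some sequences, so read shares need not equal shares of molecules. In bulk liver, fewer cells of a type and less RNA per cell cannot be told apart.

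Among the 5p strands, miR-199a-5p (mmu-miR-199a-5p), which in human lung fibroblasts is reported to target caveolin-1, was the highest member with 3574 reads, 0.0537% of mouse reads (0.0519 to 0.0554), rank 39 of all mouse sequences. miR-199b-5p (mmu-miR-199b-5p), known in mouse heart for targeting the kinase Dyrk1a, had 560 reads or 0.00841% (0.00773 to 0.00913), rank 86. There were thus 6.38 reads of miR-199a-5p per read of miR-199b-5p (5.84 to 6.99), and the miR-199a loci gave 86.5% of the reads of the 2 strands (85.4 to 87.5). miR-214-5p (mmu-miR-214-5p), the partner strand in the Mir214 duplex, had 247 reads or 0.00371% (0.00326 to 0.00420), rank 121.

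Among the 3p strands, miR-199a/b-3p (mmu-miR-199a-3p and mmu-miR-199b-3p), a liver miRNA known to target the receptor Met and the kinase mTOR in human liver cancer cells, had 1794 reads by its mouse entry, 0.0269% of mouse reads (0.0257 to 0.0282), rank 56. miR-214-3p (mmu-miR-214-3p), reported to target the histone methyltransferase Ezh2 in mouse muscle, had 62 reads or 0.000931% (0.000714 to 0.00119), rank 189. By mouse entries the order was therefore miR-199a-5p, miR-199a/b-3p, miR-199b-5p, miR-214-5p and miR-214-3p, and the intervals of neighbours in this order did not overlap.

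**Figure D1:**
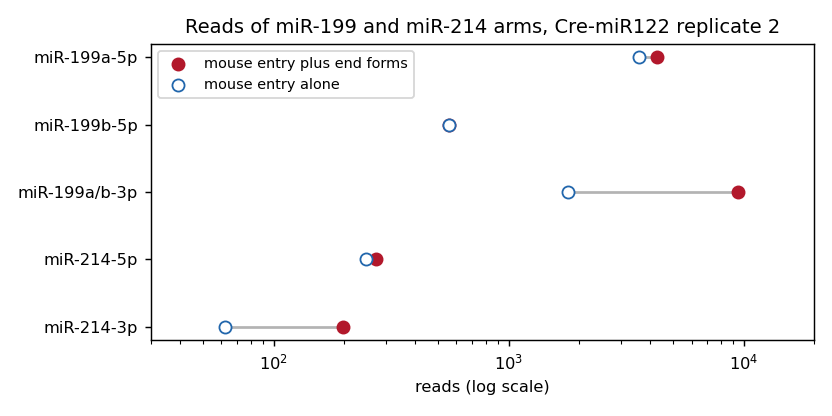
Reads of each arm in Cre-miR122 replicate 2 on a log axis, by the mouse entry alone (open points) and with end forms recorded for other species (filled points). miR-199a/b-3p had 1794 reads by the mouse entry and 9500 with end forms, the highest of the 5 arms, while miR-199b-5p had 560 either way.

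That order changed when reads with other ends were counted. The list holds same-named entries of other species (217 entries, 47 distinct sequences), and 24 of these sequences, the mouse ones included, match the arms of the mouse hairpins exactly. They are called end forms here, and 23 of the 24 had reads. Longer forms could exceed shorter ones nested in them, so a read was not counted for all the forms within it. Whether a read had to equal an entry or was given to its best match is not stated. Under best matching, a form's count could include reads with other ends, and the shares by start and end below would then be shares of assigned reads. miR-199a-5p had 3574 reads, against 639 for the form lacking its last base. With end forms the members held 14816 reads, 0.184% of all mouse reads counted the same way (0.182 to 0.187), and 8579 of those reads were at entries of other species.

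miR-199a/b-3p showed the greatest gain of the 5 members, with 9500 reads by end forms, 5.30 times its mouse entry, and ranked 29. miR-214-3p had 198 reads, 3.19 times its mouse entry. The 5p strands gained less. miR-199a-5p had 4285 reads and miR-214-5p had 273, 1.20 and 1.11 times their mouse entries. For miR-199b-5p the list records no other form that matches the mouse hairpin, so its 560 reads could not rise. The human miR-199b-5p, which differs from the mouse one by C17T (mouse base first), had 0 reads.

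The higher arm of miR-199 thus depended on the counting. By mouse entries the 3p strand had 1794 reads and the 5p strands of miR-199a and miR-199b together had 4134, which is 0.434 reads of 3p per read of 5p (0.410 to 0.459). With end forms the values were 9500 for 3p and 4845 for 5p, which is 1.96 reads of 3p per read of 5p (1.89 to 2.03). The miR-199 arms changed order, as did 9 of 138 other mouse hairpin pairs with at least 100 reads (6.52%).

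For miR-214 the 5p strand was the higher arm by mouse entries and with end forms. There were 0.251 reads of 3p per read of 5p by mouse entries (0.187 to 0.333) and 0.725 with end forms (0.601 to 0.874). Next, 2 sequences that end in A and lie in no mouse hairpin were added, chosen after the values were seen. The first entry of each is of fish. This gave 0.861 (0.720 to 1.03), whose interval reaches 1. miR-214-3p, the strand known from fibrosis and muscle, was the lowest of the 5 members by mouse entries and with end forms.

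The miR-199 and miR-214 sequences, which include those of the cluster on Dnm3os, differed in reads. On the 5p side, miR-199a-5p had 14.5 reads per read of miR-214-5p (12.7 to 16.5), or 15.7 with end forms (13.9 to 17.8). On the 3p side, miR-199a/b-3p had 28.9 reads per read of miR-214-3p (22.5 to 37.9), or 48.0 with end forms (41.7 to 55.5). Over both arms miR-199 had 5928 reads and miR-214 had 309, a ratio of 19.2 (17.1 to 21.6) that became 30.5 (27.8 to 33.5) with end forms. The miR-199a reads also include those of Mir199a-1 on chromosome 9, and the 3p reads include those of Mir199b, so the ratio is not one within Dnm3os.

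The forms of miR-199a/b-3p are printed here because the reads lay mostly outside the mouse entry. The seed of each form is in capitals.
21 bases, mouse start: aCAGTAGTctgcacattggtt
22 bases, the mouse entry: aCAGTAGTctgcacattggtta
22 bases, 1 base earlier: tACAGTAGtctgcacattggtt
21 bases, 1 base later: cAGTAGTCtgcacattggtta
23 bases, 1 base earlier: tACAGTAGtctgcacattggtta
20 bases, 1 base earlier: tACAGTAGtctgcacattgg

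The form of 21 bases, which ends 1 base before the mouse entry, had 5935 reads and 62.5% of the arm (61.5 to 63.4). The mouse entry held 18.9% (18.1 to 19.7). The form that starts 1 base earlier and ends in tt had 1415 reads or 14.9% (14.2 to 15.6). The form that starts 1 base later had 250 reads, and the 2 other forms with the earlier start had 74 and 12. The remaining form, 1 base longer than the mouse entry at the 3′ end, had 20 reads.

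Sorted by first base, 81.6% of miR-199a/b-3p reads began at the mouse start (80.8 to 82.3), 15.8% began 1 base earlier (15.1 to 16.5) and 2.63% began 1 base later (2.32 to 2.97). The earlier start gives the seed ACAGTAG and the later one AGTAGTC, and neither is the seed of any mouse sequence in the list. The mouse start with 7749 reads was the main one, and the earlier start with 1501 reads exceeded the 560 reads of miR-199b-5p. Among the forms that end 1 base before the mouse end, 1415 reads had the earlier start and 5935 the mouse start.

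The earlier form of miR-199a/b-3p shares its first 7 bases with miR-101a-3p, a miRNA that in human cells targets the histone methyltransferase EZH2. This match was looked for after the values were seen. The shared bases of miR-101a-3p are in capitals.
miR-101a-3p: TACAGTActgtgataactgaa
Its seed differs at the last base only, so bases 2 to 7 are the same. The earlier form had 1501 reads over its 3 lengths, against 1167 for the mouse entry of miR-101a-3p. With end forms that miRNA had 7390 reads, of which 3402 began at the mouse start and so have these bases 2 to 7. miR-144-3p, a red cell miRNA, is the other mouse entry with these bases 2 to 7 and had 3 reads. End forms of other miRNAs that begin at another base were not searched for these bases.

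**Figure D2:**
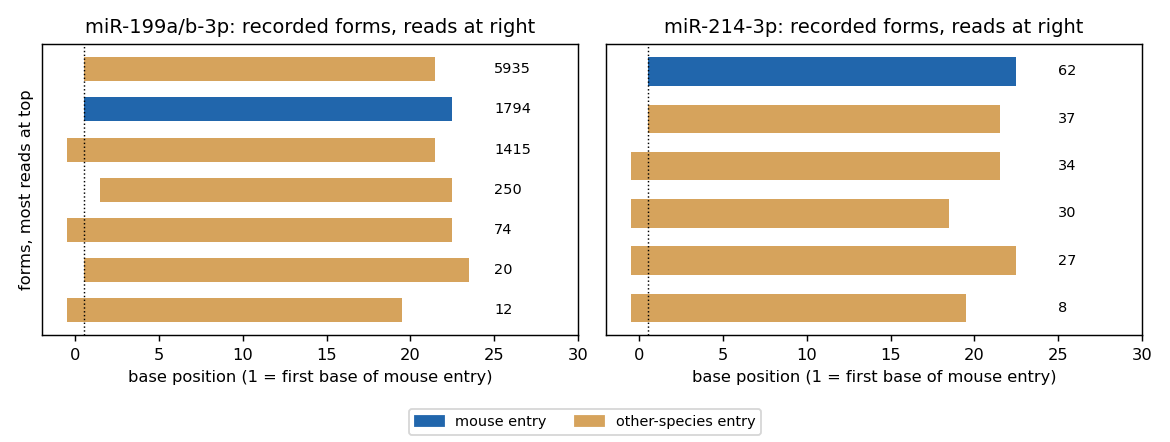
Recorded forms of both 3p arms with at least 1 read, drawn by base position relative to the first base of the mouse entry (dotted line), with reads beside each bar. For miR-199a/b-3p the form of 5935 reads ends 1 base before the mouse entry, and for miR-214-3p 4 of the 6 forms begin 1 base before it.

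The forms of miR-214-3p are shown for their 5′ starts.
22 bases, the mouse entry: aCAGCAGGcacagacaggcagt
21 bases, mouse start: aCAGCAGGcacagacaggcag
22 bases, 1 base earlier: tACAGCAGgcacagacaggcag
19 bases, 1 base earlier: tACAGCAGgcacagacagg
23 bases, 1 base earlier: tACAGCAGgcacagacaggcagt

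At the mouse start miR-214-3p had 62 reads of the mouse entry and 37 of the form 1 base shorter. At the earlier start it had 34, 30 and 27 reads of the 3 forms printed and 8 of a form of 20 bases. Over the recorded forms both starts thus had 99 reads, 50% of the arm each (42.8 to 57.2). The list holds forms of 19 and 20 bases at earlier starts only, so such reads could not be counted at the mouse start. Among forms of 22 bases, 34 reads had the earlier start and 62 the mouse start, 35.4% earlier (25.9 to 45.8). A form that begins 2 bases earlier is in the list and had 0 of 198 reads. The earlier start gives the seed ACAGCAG, found in no mouse sequence of the list. Without the forms of 19 and 20 bases, chosen after the values were seen, 61.9% of reads (53.9 to 69.4) began at the mouse start.

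Starts on the 5p arms were nearly fixed among recorded forms. For miR-199a-5p, 4275 of 4285 reads or 99.8% (99.6 to 99.9) began at the mouse start, and 10 reads began 1 base later. For miR-214-5p this was 268 of 273 reads or 98.2% (95.8 to 99.4), with 5 reads 1 base later. The intervals of both 5p arms lay above those of both 3p arms. The list records no 5p form of these hairpins that begins earlier, so such reads would not be seen.

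**Figure D3:**
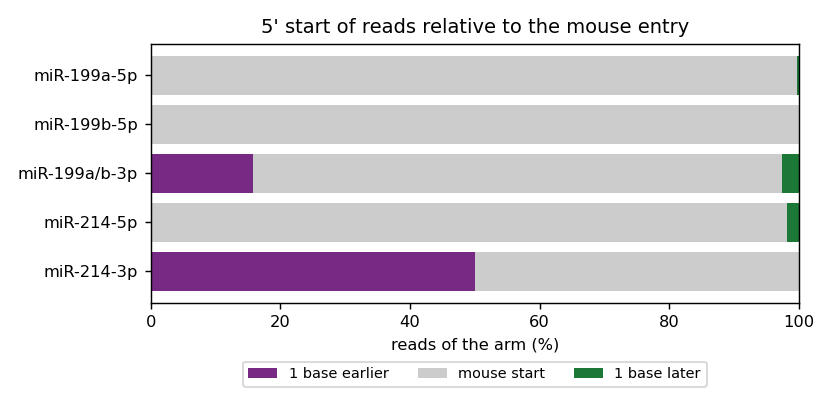
Share of each arm's reads by 5′ start relative to the mouse entry, in percent, over recorded forms. The purple part, reads that begin 1 base earlier, was 15.8% of miR-199a/b-3p and 50% of miR-214-3p. The list holds no such form for the 5p arms. For miR-214-3p it holds forms of 19 and 20 bases at earlier starts only.

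The 3′ ends varied on every arm for which another end is recorded. On miR-199a-5p the entry of 23 bases had 5.59 reads per read of the form 1 base shorter (5.14 to 6.09). The form 1 base longer had 45 reads, and those 2 and 3 bases shorter had 16 and 1. On miR-214-5p a form 2 bases shorter had 21 reads or 7.69% of the arm (4.82 to 11.5).

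On miR-199a/b-3p the recorded 3′ ends differed between the earlier and the mouse 5′ start. The later start is listed with the mouse end only, so its ends could not vary. Reads of miR-199a/b-3p with the earlier start ended 1 base before the mouse end 19.1 times as often as at it (15.1 to 24.5). Those of the mouse start did so 3.31 times as often (3.14 to 3.49). For miR-214-3p the same values were 1.26 (0.737 to 2.17) for the earlier start and 0.597 (0.386 to 0.911) for the mouse start, and these intervals overlap. Forms of 21 bases held 65.1% of miR-199a/b-3p reads (64.1 to 66.1), while 83.4% of miR-199a-5p reads had 23 bases (82.3 to 84.5).

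Counting end variants in the same way for all mouse sequences, 204 arms, the 5 members among them, reached 100 reads. The share held by the mouse entry was 18.9% for miR-199a/b-3p, with 40 of the arms outside the families lower, and 31.3% for miR-214-3p (24.9 to 38.3), with 54 lower. For miR-199a-5p it was 83.4% and for miR-214-5p 90.5% (86.4 to 93.7), with 130 and 149 lower. Outside the families the median share was 69.3% (quartiles 28.0 and 90.04).

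Of the arms outside the families, 73 have a recorded form at another 5′ start, and they had a median of 98.8% of reads at the mouse start (lower quartile 79.9). Lower values than the 50% of miR-214-3p occurred in 9 of them, among them miR-101a-3p with 46.0% and miR-29a-3p with 48.5%, both named after their values were seen. The 50% includes forms of 19 and 20 bases, which the list holds for miR-214-3p at earlier starts only. Over forms of at least 21 bases it was 61.9%. Lower values than the 81.6% of miR-199a/b-3p occurred in 19 arms. All arms share 1 library and 1 list, and these positions are a description with no test.

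**Figure D4:**
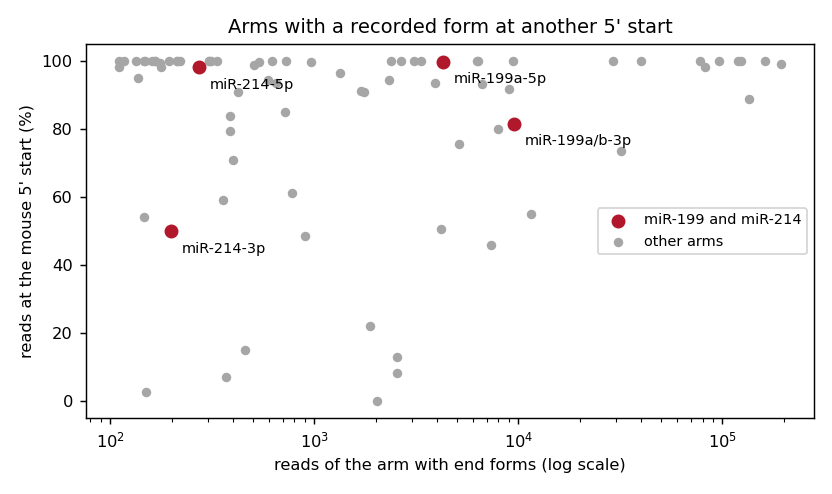
Share of reads at the mouse 5′ start (percent) against the reads of the arm (log axis), for the arms with at least 100 reads and a recorded form at another start, with 4 member arms in red and 73 other arms in grey. miR-214-3p lies at 50% and miR-199a/b-3p at 81.6%, and both 5p arms lie above 98%.

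The Mir214 hairpin is also known as a source of miR-3120 from its opposite strand in human. The list holds 7 distinct sequences antisense to the 4 hairpins, 6 of them to Mir214, and none is a mouse entry. All 7 had 0 reads, so reads from the opposite strand were not detectable at this depth in these forms.

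The families are labelled by stellate cells, and other miRNAs of those and neighbouring cells show where they stand in this library. The 5 member sequences held 0.0936% of mouse reads, against 2.24% (2.23 to 2.26) for a list of 10 other stellate cell and mesenchymal sequences, of which 9 had mouse-entry reads. That list had 24.0 reads per member read (23.4 to 24.6), or 12.3 with end variants (12.1 to 12.5). Most of the list was 1 sequence, miR-143-3p of smooth muscle and mesenchymal cells, with 135826 of 149525 reads, so the ratio mainly describes that sequence. Next came miR-152-3p with 8653. miR-145a-3p was at 0 by its mouse entry and had 356 reads with end variants. A list of 5 fibrosis miRNAs held 0.152%, which became 0.992% after adding end variants. Nearly all of it was miR-21a-5p, which rises in injured tissue, with 9945 of 10112 reads, or 78762 of 79688 with end variants. miR-29a-3p, which targets collagen mRNAs, came next with 158 reads.

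The miR-199 and miR-214 members had more reads than the immune and cholangiocyte lists. They held 0.0936%, against 0.0654% (0.0634 to 0.0673) for 6 immune miRNAs. Nearly all of the immune reads were miR-146a-5p, with 4090 of 4354, and miR-150-5p came next with 135. The 5 cholangiocyte and epithelial miRNAs, led by miR-200b-3p and miR-200a-3p, held 0.0344% (0.0330 to 0.0359). With end forms the members held 0.184%, against 0.0835% of the immune and 0.116% of the cholangiocyte and epithelial list. They had fewer reads than the endothelial miR-126a arms, at 0.908% or 1.70% with end variants, and than 8 hepatocyte sequences at 63.5%. Most of the hepatocyte list was miR-148a-3p, with 3856275 of 4230867 reads, so its share mainly describes that sequence. Next came miR-122-5p with 236027.

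Of the striated muscle markers, miR-1a-3p and miR-206-3p were high in the same library. The 7 sequences of the striated muscle list held 15.8% of mouse reads (15.7 to 15.8), and 6 of them had reads. Of the list's 1050317 reads, miR-1a-3p had 980271 and miR-206-3p had 68854. By contrast, miR-133a-3p had 915 reads (11609 with end variants) and miR-133b-3p had 20. Of the heart markers, miR-208a-3p was at 0, and miR-208b-3p and miR-499-5p had 6 and 251 reads. miR-199 and miR-214 are known in muscle as well as in stellate cells, and the part of muscle RNA in their reads was not tested. The data give no cell of origin, so the stellate cell label could not be checked beyond these marker levels.

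**Figure D5:**
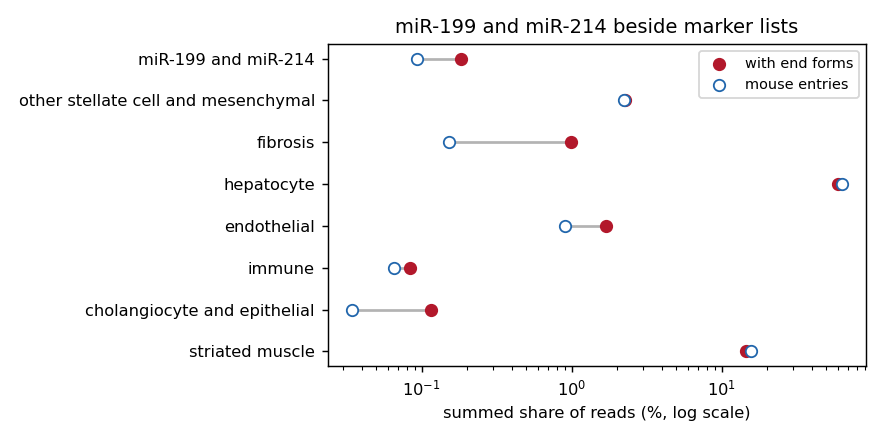
Summed share of reads (percent, log axis) of miR-199 and miR-214 and of 7 marker lists, by mouse entries (open points) and with end forms (filled points, as a share of mouse reads with end variants). The members lie at 0.0936% and 0.184%, above the immune and the cholangiocyte and epithelial lists by both counts.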

How the data were processed

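Total RNA of mouse liver was ligated to adapters at both ends, amplified, size-selected and sequenced as single reads, per the labels' protocols. The deposited table gives raw counts of the cleaned reads of 1 library for each mature miRNA entry of many species, per the file headers, and 0 library columns lacked a sample. Per the submitters' processing notes the build is mm10. The counting program and its settings are not given in the sources used. Reads before matching are unknown, so depth means the 8163802 matched reads.

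Entries of identical sequence had equal counts and were used once. End variants of all mouse sequences were found by exact match in the 2202 miRNA hairpins of GENCODE M21 (GRCm38), with at least 15 bases of overlap. For the members, entries also had to carry the name miR-199 or miR-214. RefSeq (GRCm38.p6) gave 4 of 4 hairpins and 5 of 6 mature names. Intervals are exact Clopper-Pearson, and ratios use the binomial given the sum of both counts. On simulated shares of this library 95.3% of 3030 intervals held the true share, and 98.4% of 188 simulated end forms were given to their source. These simulations used the counting model that the intervals assume and the same hairpins. They check the calculation only and do not cover PCR copies, ligation or the unstated counting rule.

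The comparison of Cre-miR122 with Cre was not run, since 1 library was analysed. Pattern likeness across samples could not be computed for the same reason. The members and lists were chosen with earlier results of these data known. Named miRNAs were the members, antisense and shared-seed sequences, up to 2 leading members of each list, the 4 leading forms of an arm and every other-start form with at least 10 reads. Other names were chosen after their values were seen, among them miR-133a-3p, miR-133b-3p, miR-499-5p, miR-208b-3p, miR-208a-3p, miR-145a-3p and miR-144-3p. Alternatives were other totals, end forms and a minimum of 10 reads. Calculations used SciPy 1.17.1, NumPy 2.4.6 and pandas 2.3.3 in Python 3.11.15, and figures used matplotlib 3.10.9.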

Additional observations from a re-analysis of the deposited data

Results flagged for a closer look

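Reads were also counted for same-named entries that lie in no mouse hairpin. Of 22 such sequences 5 had reads, and 2 were above the floor of 3 reads. Both are miR-214-3p forms whose last base differs from the mouse hairpin, and the first entry of each is of fish. One is the mouse entry with T22A (mouse base first, positions from 1 at the 5′ end), with 21 reads, or 25.3% of the reads of both sequences (16.4 to 36.0). The other is the form that starts 1 base earlier with T23A, with 16 reads, or 37.2% of both (23.0 to 53.3). Each equals the form 1 base shorter, which had 37 and 34 reads, followed by A. They attracted attention because they lie outside the counts used for the mouse arm. The other 3 sequences, all named miR-199, had 1 read each.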

How the results depend on the processing

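The summed share of miR-199 and miR-214, 0.0936% of mouse reads, was 0.0764% of the reads of all sequences, 0.184% with end forms in members and total, 0.222% without miR-148a-3p in the total and 0.111% without the striated muscle list. It was also 0.222% with end forms of the members alone, an alternative chosen after seeing the data. These moves follow from the reads each setting adds or removes. With end forms the ratio of miR-199 3p to 5p reads was 1.96 in place of 0.434, a reversal of the order. The ratio of miR-214 3p to 5p was 0.725 in place of 0.251. It was 0.861 (0.720 to 1.03) with the 2 A-ending sequences added as well, also chosen after seeing the data, so that the interval then reached 1. Both ratios were the same when forms of any name were allowed. The ratio of miR-199a-5p to miR-199b-5p was 7.65 in place of 6.38, for which the list holds 6 forms of the first and 1 of the second, and that of miR-199 to miR-214 was 30.5 in place of 19.2. The share of miR-214-3p reads at the mouse start, 50%, was 61.9% over forms of at least 21 bases, and moved within its interval when the A-ending sequences were added (51.1%). A minimum of 10 reads removed no member and no form of miR-199a/b-3p, so the start share of miR-199a/b-3p could not move. The summed share, for which only the total could change, stayed within its interval. No paired analysis was possible because counts of only 1 library were used, and replicate numbers differ between the groups. Leaving out replicates and the comparison of Cre-miR122 with Cre were not run for the same reason. Depth limits miR-214-3p most, whose forms had between 0 and 62 reads. Arm totals hold recorded forms only.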
